A study of Mus musculus with 6 samples.

Results

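Thbs1, Fn1, Vcan and F13a1, 4 genes of extracellular matrix and clotting that circulating monocytes transcribe, were followed across the immune cells of metastatic mouse liver. They were chosen by symbol, and all 4 were present in each of the 3 deposited matrices, which together hold 5301 features. Balb/c mice received an intracardiac injection of 4T07, a mouse mammary tumour line, carrying either a scramble shRNA (Ctrl) or an shRNA against Tim3 (Tim3-KD) delivered by a lentiviral vector, so the knockdown lay in the tumour cells and not in the immune cells measured here. CD45+ cells were sorted from liver pieces and profiled by 10x 3' single-cell RNA-seq in 6 libraries: tumour-free adjacent tissue at day 3, micrometastasis at day 3 and macrometastasis at day 12, each from Ctrl and Tim3-KD mice. Per the study's methods each library pooled cells of more than 1 mouse, and it was the only one of its group. The groups were compared without a test, so the text has no p-values. The 95% intervals below cover counting error only, not the spread between mice.

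Monocytes leave the marrow through the blood and enter inflamed or tumour-bearing tissue, where they can become macrophages and lay down part of a provisional matrix. Thbs1 encodes thrombospondin-1, a matricellular protein that binds the receptors CD36 and CD47 and can activate latent TGF-β. Fn1 encodes fibronectin, the adhesive glycoprotein that integrins bind, and Vcan encodes versican, a large chondroitin sulfate proteoglycan that binds hyaluronan. F13a1 encodes the A subunit of coagulation factor XIII, a transglutaminase that cross-links fibrin and can couple fibronectin to the clot. Platelets also carry thrombospondin-1 and factor XIII, hepatocytes secrete plasma fibronectin and stromal cells make each of these matrix proteins, so levels of platelet and hepatocyte markers are given beside the members where the matrices hold them.

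The 6 libraries held 23008 cells, from 542 in adjacent Tim3-KD to 5502 in macrometastasis Tim3-KD, and from 7086531 to 79971697 UMIs (unique molecular identifiers, 1 per captured transcript). Median UMIs per cell ranged from 6300 to 10248, and 59 barcodes occurred in more than 1 library. Joint clustering without the 4 members gave 25 clusters, of which 3, named from monocyte markers, make up the monocyte-like class. It had 268 Ctrl and 21 Tim3-KD cells from adjacent tissue, 707 and 828 from micrometastasis, and 213 and 356 from macrometastasis. Cluster 5 was led by Ms4a4c and Ccr2. Cluster 8 was led by Ass1 and Ly6c2 with the proliferation genes Pclaf and Top2a, and had 22922 to 43652 median UMIs per cell in the libraries with over 50 of its cells, against 7935.5 to 16120.5 in cluster 5. Cluster 24, led by Cd36, Adgre4 and Treml4, reached 50 cells only in macrometastasis Ctrl. The adjacent Tim3-KD library, with 21 monocyte-like cells and none in cluster 8, stood apart, and its monocyte-like values rest on few cells. A doublet score over 0.15 was found in 5.38% to 33.3% of monocyte-like cells per library, highest in adjacent Tim3-KD. In macrometastasis it was found in 11.7% (Ctrl) and 24.7% (Tim3-KD) of them.

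The genes lie on 3 chromosomes of GRCm38: Thbs1 at chr2:118111876-118127133 (plus strand), Fn1 at chr1:71585473-71653280 (minus), Vcan at chr13:89655309-89743027 (minus) and F13a1 at chr13:36867178-37050244 (minus). The 250 bases before the 5′ end of F13a1, at chr13:37050245-37050494 on the minus strand (RefSeq, GRCm38.p6), are shown because F13a1 departs below from the other members outside the monocyte-like class. The capitals mark the single match to GAGGAAG, a form of the site bound by PU.1, the transcription factor of myeloid cells.
F13a1, 5′ to 3′: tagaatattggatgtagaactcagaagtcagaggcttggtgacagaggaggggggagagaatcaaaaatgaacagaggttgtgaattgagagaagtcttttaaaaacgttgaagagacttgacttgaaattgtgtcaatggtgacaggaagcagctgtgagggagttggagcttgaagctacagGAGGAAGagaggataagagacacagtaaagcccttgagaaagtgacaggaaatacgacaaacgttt
The match lies 66 bases before the start. Both strands were searched, and 10.6% of 32851 RefSeq windows of the same kind hold GAGGAAG. The window holds none of TGANTCA (AP-1), TTGCNNAA (C/EBP) or TGTGGT (RUNX), which 2217, 3142 and 4614 of the 32851 windows hold. A second F13a1 window, at chr13:37049214-37049463, and the Vcan window, both inside their genes' RefSeq spans, held none of the 4 motifs. These are letter matches only. Thbs1 and Fn1 had no entry in the table.

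All 4 members were highest in monocyte-like cells, in the unnamed cluster 17 described below and, in micrometastasis Ctrl, in macrophage-like cells. Levels are UMIs of the gene per 1000000 UMIs of the same cells (CPM), taken over every class or unnamed cluster with at least 50 cells in a library. Thbs1 ranged from 138.9 to 364.5 CPM over the 5 libraries with at least 50 monocyte-like cells. In the 49 pairs of any other class and library its highest level was 7.14 CPM, in mature neutrophil-like cells of macrometastasis Ctrl, and its median was 1.39. Fn1 ranged from 378.7 to 745.1 CPM in monocyte-like cells, against at most 22.4 and a median of 2.33 elsewhere. Vcan ranged from 68.0 to 198.9 CPM, against at most 3.32 and a median of 0.319, with 0 UMIs in 20 of the 49 pairs. The lowest monocyte-like level was thus 19.5, 16.9 and 20.5 times the highest level elsewhere for Thbs1, Fn1 and Vcan. F13a1 was the exception in size: 376.5 to 679 CPM in monocyte-like cells, but up to 77.0 CPM in cluster 15, a margin of only 4.89 times.

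**Figure D1:**
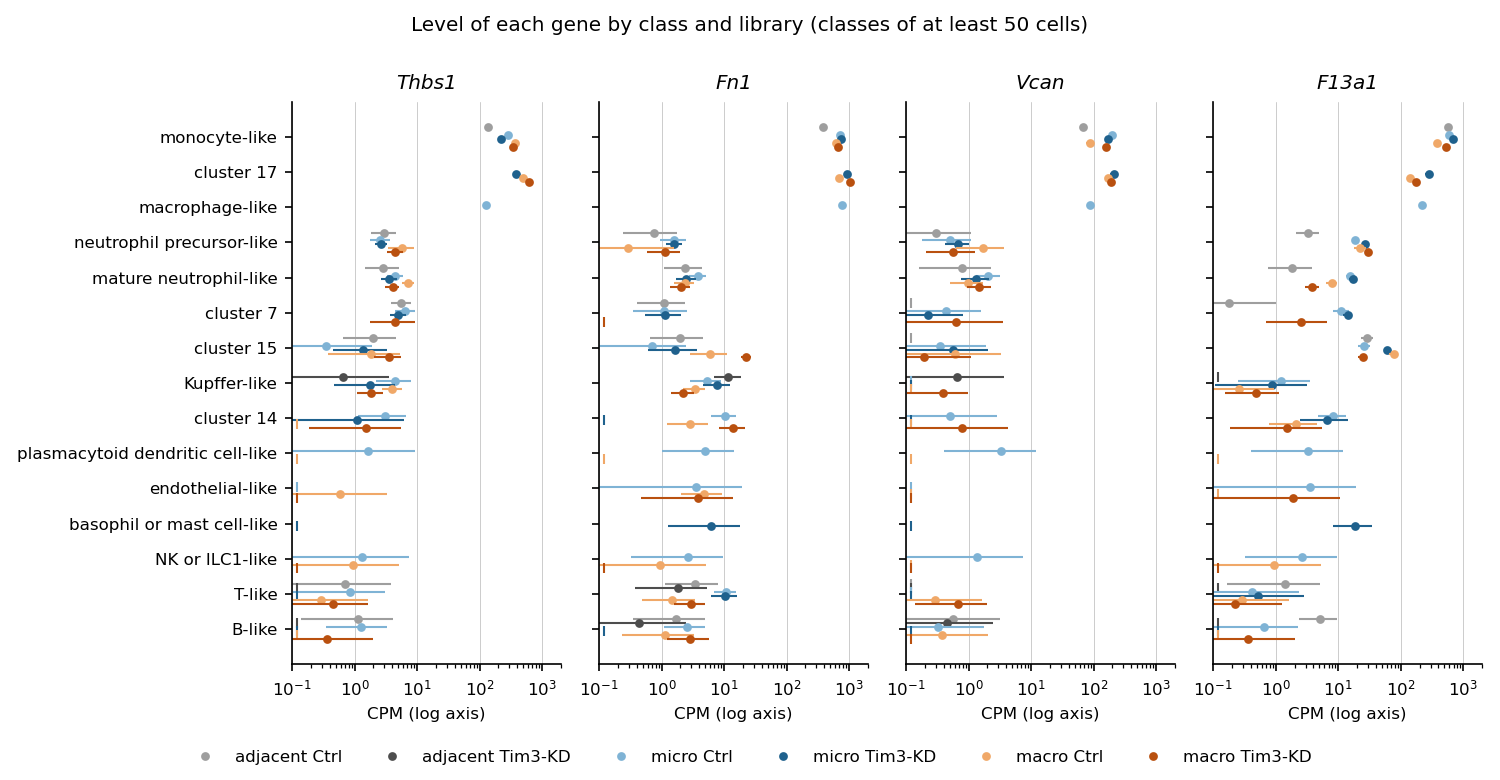
Level of each member (CPM, log axis) in every class or unnamed cluster with at least 50 cells, 1 point per library. Ticks at the left edge stand for 0 UMIs. Points of the monocyte-like class, cluster 17 and the macrophage-like class lie to the right of all others for Thbs1, Fn1 and Vcan, while F13a1 also has points up to 77.0 CPM in cluster 15 and to 29.9 CPM in neutrophil precursor-like cells.

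Read as a share of all transcripts, the monocyte-like class held 78.3% and 85.4% of the Thbs1 UMIs of micrometastasis (Ctrl and Tim3-KD), 63.4% and 90.8% of the Fn1 UMIs, 80.2% and 91.4% of the Vcan UMIs and 77.9% and 84.6% of the F13a1 UMIs. The class made up 13.9% and 16.1% of the cells there. Macrophage-like cells, led by Sdc4, Ccl24 and Trem2, held most of the rest in micrometastasis Ctrl: 34.7% of the Fn1, 17.3% of the Thbs1, 17.8% of the Vcan and 14.1% of the F13a1 UMIs. Their levels were 779.8 CPM for Fn1, 219 for F13a1, 126 for Thbs1 and 88.95 for Vcan. Only that library had at least 50 such cells, 412, against 42 in micrometastasis Tim3-KD. In macrometastasis the monocyte-like share was lower in Ctrl than in Tim3-KD for each member: 37.1% and 59.4% for Thbs1, 43.1% and 63.8% for Fn1, 30.3% and 69.7% for Vcan, and 55.6% and 80.5% for F13a1. The class made up 4.34% and 6.47% of the cells there, and 5.18% and 11.7% of all UMIs. Cluster 17 held most of the remainder except for F13a1 in Tim3-KD, of which it held 8.51% of the UMIs.

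**Figure D2:**
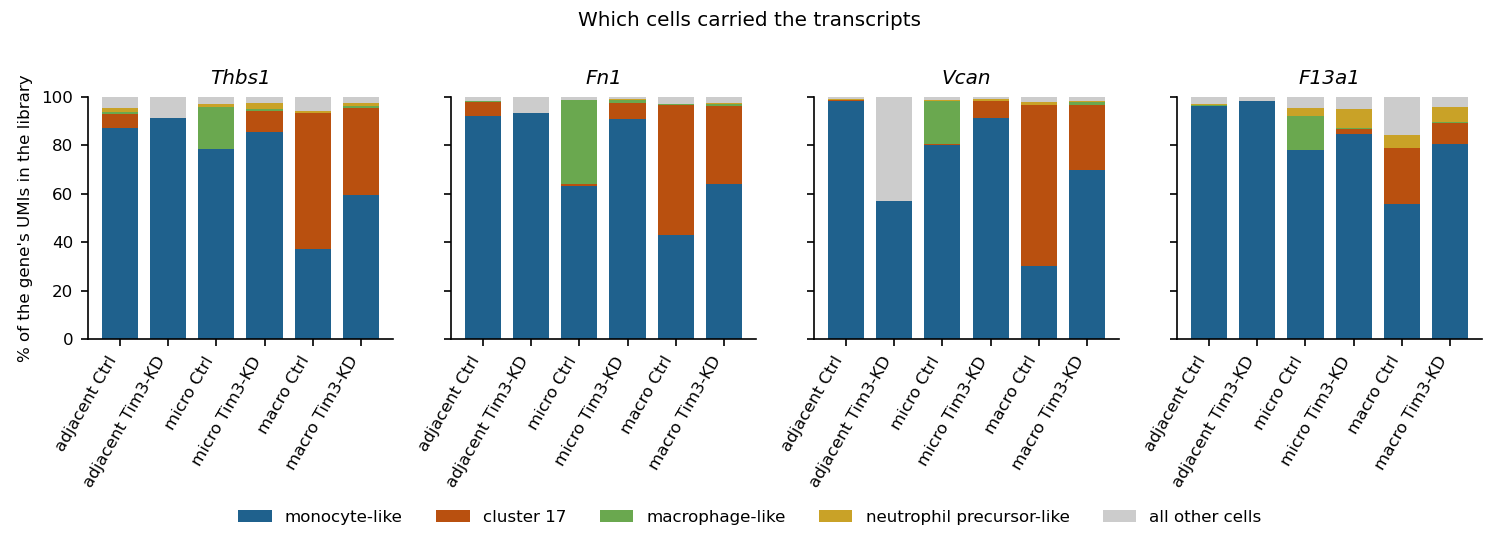
Share of each library's UMIs of a member (percent) held by the monocyte-like class, cluster 17, the macrophage-like class and other cells. Monocyte-like cells hold over 60% in each adjacent and micrometastasis library except for Vcan in adjacent Tim3-KD, which has 7 UMIs in all, while cluster 17 holds 23.1% to 66.4% in macrometastasis Ctrl.

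Summed over whole libraries, the ratio of Tim3-KD to Ctrl went in opposite directions in adjacent tissue and in macrometastasis. Thbs1 of adjacent tissue was at 38.2 CPM with Ctrl tumours and 16.5 with Tim3-KD tumours, or 0.433 times (0.355 to 0.523). Fn1 was at 98.2 and 47.4 CPM (0.483, 0.430 to 0.541), Vcan at 16.6 and 0.988 (0.0597, 0.0239 to 0.124) and F13a1 at 140.2 and 29.4 (0.209, 0.181 to 0.241). All 4 lay past 2-fold lower, as did 9.39% of the 4485 genes with at least 20 UMIs, while 34.0% were past 2-fold higher. Monocyte-like cells were 14.9% of the adjacent Ctrl cells and 3.88% of the Tim3-KD cells, and the summed Kupffer cell markers (12 of 12 genes) were at 512.3 and 7540 CPM. Mature neutrophil-like cells numbered 574 in adjacent Ctrl and 19 in Tim3-KD, and neutrophil precursor-like cells 138 and 0. A level over all cells moves with the number of cells of a type and with the RNA in each, and the 2 cannot be told apart from it. Their part in the whole-library differences was not tested.

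In macrometastasis every member was higher in Tim3-KD. Thbs1 was at 50.9 and 66.9 CPM (ratio 1.31, 1.25 to 1.38), Fn1 at 73.1 and 123.1 (1.68, 1.62 to 1.76) and Vcan at 14.8 and 26.9 (1.82, 1.66 to 1.99). F13a1, at 35.04 and 78.1 CPM (2.23, 2.10 to 2.36), was the 1 member past 2-fold higher, though at 1.82 times with a mean over cells. Of the 2643 genes of the matrix 2.27% were past 2-fold higher and 10.6% past 2-fold lower. In micrometastasis no member was past 2-fold in either direction, as against 0.749% of 2669 genes higher and 18.2% lower. F13a1 was at 126.1 and 140.7 CPM (1.12, 1.08 to 1.15), Thbs1 at 59.1 and 46.0 (0.777, 0.741 to 0.815), Fn1 at 181.7 and 144 (0.793, 0.772 to 0.814) and Vcan at 40.5 and 32.9 (0.811, 0.767 to 0.859).

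The scaling mattered for those micrometastasis values. The trimmed mean of all genes' log2 ratios was 0.63 (adjacent tissue), -0.49 (micrometastasis) or -0.29 (macrometastasis). Relative to it, the micrometastasis ratios of Thbs1, Fn1 and Vcan turned to 1.09, 1.11 and 1.14, and that of F13a1 was 1.56. The macrometastasis ratios became 1.60, 2.06, 2.22 and 2.72 and the adjacent ratios 0.279, 0.312, 0.0385 and 0.135 (Thbs1, Fn1, Vcan, F13a1), with no change of direction. A mean over cells in place of summed UMIs also turned the micrometastasis ratios of Thbs1, Fn1 and Vcan, to 1.20, 1.05 and 1.21.

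Within monocyte-like cells, Fn1 was lowest in adjacent Ctrl. It was at 378.7 CPM there, 705.4 and 745.1 in micrometastasis (Ctrl and Tim3-KD) and 608.1 and 671.4 in macrometastasis. The Tim3-KD to Ctrl ratios were 1.06 (1.02 to 1.09) and 1.10 (1.04 to 1.17). The first turned to 0.976 under a finer clustering. Taken as a fold, Vcan had the widest range of the members. It was at 68.0 CPM in adjacent Ctrl, 198.9 and 171.2 in micrometastasis and 86.7 and 160.1 in macrometastasis, with ratios of 0.861 (0.810 to 0.915) and 1.85 (1.59 to 2.16). Of these 5 libraries, macrometastasis Ctrl and adjacent Ctrl were low and the others high. In the 21 cells of adjacent Tim3-KD, Vcan had 4 UMIs, or 8.71 CPM (ratio 0.128, 0.0348 to 0.330).

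Thbs1 was at 138.9 CPM in adjacent Ctrl, 283.4 and 223.6 in micrometastasis and 364.5 and 339.2 in macrometastasis, with Tim3-KD to Ctrl ratios of 0.789 (0.749 to 0.832) and 0.931 (0.860 to 1.01). The macrometastasis interval includes 1, and the direction changed under other settings: the ratio was 1.57 with a mean over cells and 1.37 without cells of a doublet score over 0.15. There 1 Ctrl cell alone held 128 Thbs1 UMIs, and without the cell of most UMIs in each library the ratio was 1.06. F13a1 was at 564.3 CPM in adjacent Ctrl, 601.4 and 679 in micrometastasis and 376.5 and 537.3 in macrometastasis, with ratios of 1.13 (1.09 to 1.17) and 1.43 (1.33 to 1.54). Macrometastasis Ctrl was its lowest library. In adjacent Tim3-KD the ratios were 1.68 (1.36 to 2.05) for Thbs1, 1.80 (1.60 to 2.02) for Fn1 and 0.787 (0.681 to 0.906) for F13a1.

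In the adjacent monocyte-like comparison 1 member, Vcan, was past 2-fold lower and none higher, against 18.8% and 16.7% of 3864 genes. None of the 4 was past 2-fold in monocyte-like cells of micrometastasis, where 5.68% of 2430 genes were higher and 14.4% lower, nor of macrometastasis, where 7.99% of 2089 were higher and 24.3% lower. Vcan passed 2-fold in macrometastasis under other settings: its ratio was 2.92 with a mean over cells, 2.66 without doublet scores over 0.15 and 2.43 relative to the trimmed mean. The trimmed means there were -0.23 and -0.39 on the log2 scale. Relative to them the micrometastasis ratios were 0.927, 1.24, 1.01 and 1.33 and the macrometastasis ratios 1.22, 1.45, 2.43 and 1.87 (Thbs1, Fn1, Vcan, F13a1). With a mean over cells, the Thbs1 and Vcan ratios in micrometastasis turned to 1.14 and 1.21.

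The class-wide ratios joined clusters in different proportions. Cluster 5 held 85.3% of the monocyte-like cells in micrometastasis Ctrl and 52.4% in Tim3-KD, and cluster 8 held 14.3% and 47.5%. The macrometastasis class (Ctrl and Tim3-KD) was 72.8% and 63.2% cluster 5, 3.76% and 35.4% cluster 8, and 23.5% and 1.404% cluster 24. Of the class's UMIs, which the ratios sum, cluster 8 held more: 30.3% and 74.4% in micrometastasis, and 11.4% and 63.3% in macrometastasis. Cells of cluster 24 carried little of any member: in macrometastasis Ctrl, its 50 cells had 9 Thbs1 and 7 F13a1 UMIs (28.2 and 21.9 CPM) and 0 of Fn1 and Vcan, which allows up to 9.38 CPM by the limit of 3 counts.

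Within cluster 5 all 4 members were higher in Tim3-KD, at both sites. In micrometastasis Thbs1 was at 355.7 CPM (Ctrl) against 624 (Tim3-KD), a ratio of 1.75 (1.65 to 1.86), and Vcan at 225.9 and 393.5 (1.74, 1.62 to 1.88). Fn1 was at 750 and 1195 CPM (1.59, 1.53 to 1.66) and F13a1 at 594 and 759.7 (1.28, 1.22 to 1.34). In macrometastasis Vcan was at 84.3 and 254.8 CPM (3.02, 2.52 to 3.65) and Thbs1 at 382.5 and 638.2 (1.67, 1.52 to 1.83). The differences were smaller for Fn1, at 623.4 and 731.5 CPM (1.17, 1.09 to 1.27), and for F13a1, at 451.3 and 496.2 (1.10, 1.01 to 1.20). The trimmed means, -0.05 and -0.11 on the log2 scale, were near 0. Median UMIs per cell in cluster 5 were 10223 and 7935.5 in micrometastasis and 10639 and 11518 in macrometastasis, and doublet scores over 0.15 were found in 2.82% and 10.8%, and in 10.97% and 14.2%. Summed hepatocyte markers were at 326.3 and 338.2 CPM in cluster 5 of micrometastasis and at 362.2 and 408.5 for macrometastasis, and platelet markers at 2.99 and 5.31, and at 6.58 and 14.6. Their part was not tested. The higher level in Tim3-KD kept its direction for each member under each of the alternatives run on this cluster. These were a mean over cells, the trimmed mean, and leaving out doublet scores over 0.15, capped cells, cells under 3000 UMIs or the cell of most UMIs. The finer clustering and clustering with the members were not run on it, so its dependence on the cluster boundary is not known.

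Cluster 8, with the proliferation genes, gave another pattern in micrometastasis. Thbs1 was at 118.2 CPM (Ctrl) against 86.6 (Tim3-KD), or 0.732 times (0.645 to 0.834), and Vcan at 137.7 and 95.2 (0.691, 0.614 to 0.780), both lower. Fn1, at 605.5 and 591.9 CPM (0.978, 0.926 to 1.03), and F13a1, at 620.6 and 652.3 (1.05, 0.997 to 1.11), had intervals that include 1. Doublet scores over 0.15 were found in 20.8% and 17.6% of these cells, and in macrometastasis Ctrl the cluster had only 8 cells, so no ratio is given there. Thbs1 was lower in cluster 8 than in cluster 5 of the same library in each of the 4 libraries with at least 50 cells of both, at 87.3 against 242.5 CPM in adjacent Ctrl and 170.7 against 638.2 in macrometastasis Tim3-KD. F13a1 was slightly higher in cluster 8 in adjacent Ctrl, at 576.4 against 549.8 CPM, and in micrometastasis Ctrl, at 620.6 against 594. It was also higher in macrometastasis Tim3-KD, at 565.3 against 496.2, and lower in micrometastasis Tim3-KD, at 652.3 against 759.7. No interval was computed between the clusters. In macrometastasis Tim3-KD, doublet scores over 0.15 were found in 42.1% of cluster 8 and 14.2% of cluster 5 cells. With each cluster of the class given the mean of its shares of the class's UMIs in both libraries, the micrometastasis ratios were 1.48, 1.30, 1.32 and 1.16 (Thbs1, Fn1, Vcan, F13a1), all above the class-wide ones.

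**Figure D3:**
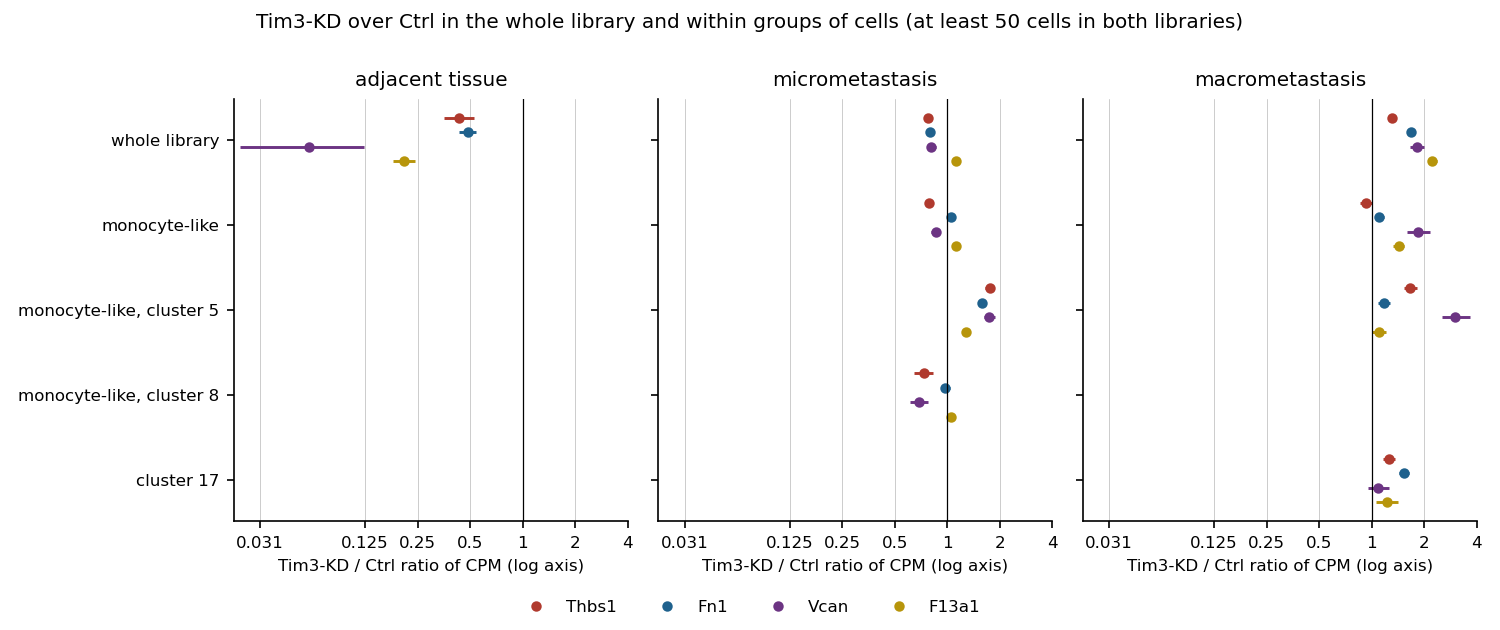
Tim3-KD over Ctrl ratio of each member (log axis) with its 95% counting interval, over whole libraries and within classes and clusters, by site. Cluster 5 points lie above 1 for all 4 members at both metastatic sites, cluster 8 points at or below 1 for Thbs1, Fn1 and Vcan in micrometastasis, and whole-library points below 1 in adjacent tissue and above 1 in macrometastasis.

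Between sites, monocyte-like cells of Ctrl mice had more of the 3 matrix transcripts in micrometastasis than in adjacent tissue of the same day. The ratios were 2.93 for Vcan (2.65 to 3.24), 2.04 for Thbs1 (1.90 to 2.20) and 1.86 for Fn1 (1.78 to 1.95), while F13a1 was at 1.07 (1.02 to 1.11). The same directions held within cluster 5 (2.19, 1.47, 1.54 and 1.08 for Vcan, Thbs1, Fn1 and F13a1) and within cluster 8 (2.71, 1.36, 1.86 and 1.08). From micrometastasis to macrometastasis, where site and day both differ, Vcan was lower (0.436, 0.374 to 0.505), as were F13a1 (0.626, 0.582 to 0.673) and Fn1 (0.862, 0.813 to 0.914). Thbs1 was higher (1.29, 1.19 to 1.39), but in cluster 5 its ratio was 1.08 (0.984 to 1.18), and over the class a mean over cells turned it to 0.894. Vcan was at 0.373 in cluster 5, the member farthest from 1. With cluster 17 counted as monocyte-like its class ratio was 0.658.

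Counted cell by cell, the members were found in part of the class only. After each cell was thinned to 1500 UMIs, F13a1 was found in 44.0% of monocyte-like cells of adjacent Ctrl, 49.9% and 59.8% of micrometastasis (Ctrl and Tim3-KD) and 28.6% and 49.4% of macrometastasis. Fn1 was found in 32.8%, 48.4%, 56.0%, 34.3% and 49.2%, and Thbs1 in 19.4%, 30.0%, 32.1%, 22.1% and 33.7%, in the same order. Vcan was found in 9.70%, 24.5%, 25.6%, 8.92% and 24.7%. In macrometastasis all 4 shares were higher in Tim3-KD. No cell fell below 1500 UMIs. In B-like and T-like cells, which should lack these genes, the highest thinned shares in any library were 0.462% for Thbs1, 1.11% for Fn1 and 0.772% for F13a1, and Vcan was found in none. Unthinned, at median depths of 9678 to 18272.5 UMIs in monocyte-like, 3484 to 9590 in B-like and 4091.5 to 12505 in T-like cells, the monocyte-like shares were 47.9% to 67.4% for Thbs1, 55.4% to 82.0% for Fn1, 28.6% to 63.0% for Vcan and 62.9% to 94.0% for F13a1.

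Transcripts of each member were spread unevenly over the class. The top 10% of monocyte-like cells by UMIs of a gene held 28.5% to 41.7% of the F13a1 UMIs, depending on the library, 38.0% to 55.1% of the Fn1, 42.5% to 61.6% of the Thbs1 and 41.5% to 70.8% of the Vcan UMIs. Over the class macrometastasis Ctrl was the most concentrated for each member. Within cluster 5 this held against adjacent Ctrl for Thbs1, at 47.0% beside 45.6%, and not for Fn1 (38.1% and 43.2%), Vcan (53.2% and 61.3%) or F13a1 (31.9% and 34.5%). In cluster 5 of micrometastasis the median cell had 1.28 Thbs1 UMIs per 10000 in Ctrl and 4.70 in Tim3-KD, and the 90th percentile was 11.1 and 14.5. Of the Fn1 UMIs the median cell had 4.72 and 8.37, of the Vcan UMIs 1.10 and 2.47, and of the F13a1 UMIs 4.84 and 6.69. The median cell of Tim3-KD was thus the higher one for each member.

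**Figure D4:**
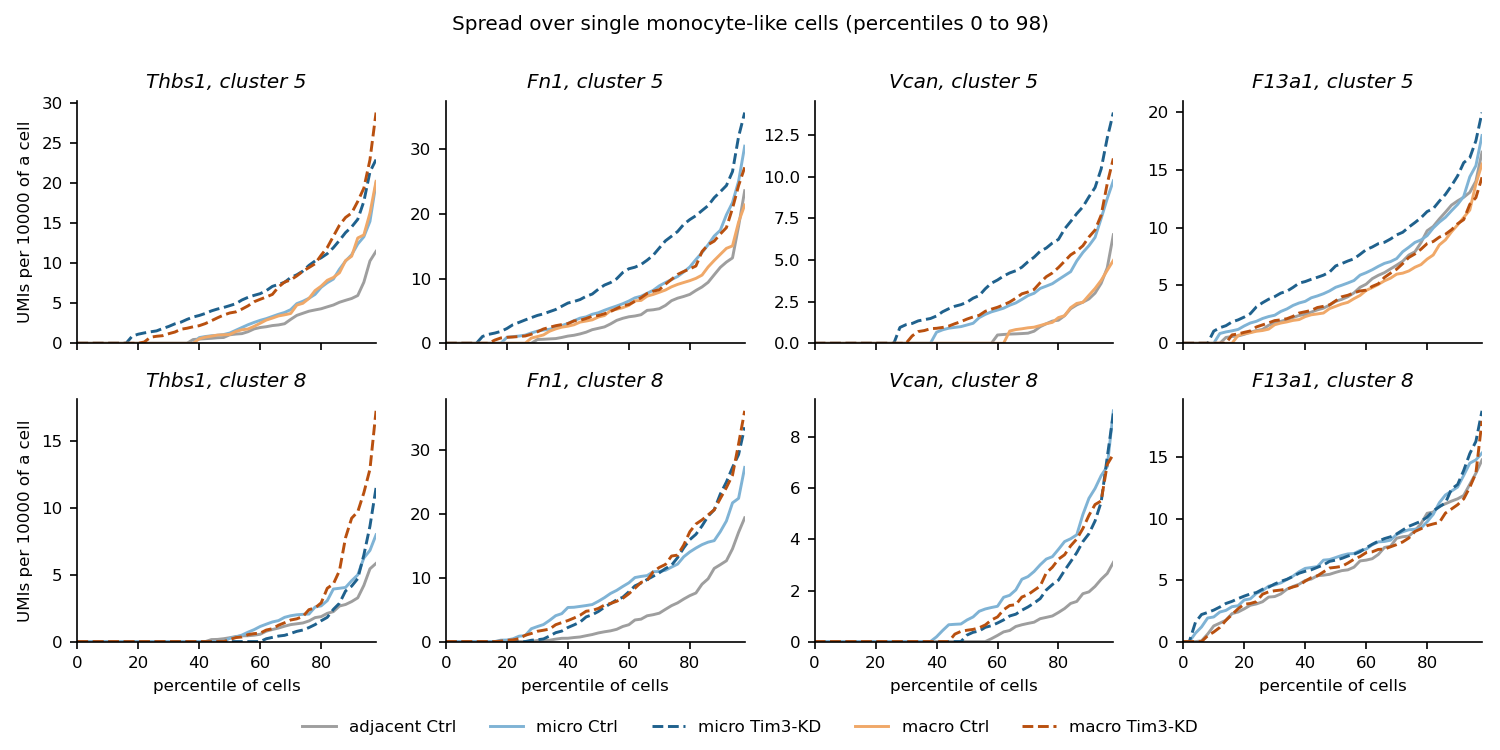
Each member's UMIs per 10000 of a cell against the percentile of cells, for cluster 5 (upper panels) and cluster 8 (lower panels), with Ctrl solid and Tim3-KD dashed. In cluster 5 of micrometastasis the dashed curves lie above the solid ones over most percentiles, and in cluster 8 the curves of Thbs1 stay near 0 up to the median cell.

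The members also occurred in the same cells more often than the product of their single shares. After thinning, all 4 were found together in 4.95% of monocyte-like cells in micrometastasis Ctrl, where the product is 1.77%, and in 5.56% against 2.76% in Tim3-KD. The values were 1.49% against 0.272% in adjacent Ctrl, 0.470% against 0.193% in macrometastasis Ctrl (1 cell) and 6.74% against 2.03% in macrometastasis Tim3-KD. All 6 pairs exceeded their product in all 5 libraries, from 1.10 times for Vcan with F13a1 in macrometastasis Ctrl to 2.18 times for Thbs1 with Vcan in adjacent Ctrl. The class joins cells with and without these genes. Within clusters 5 and 8, 3 values lay below the product: Vcan with F13a1 at 0.800 times in cluster 5 of macrometastasis Ctrl and in cluster 8 of adjacent Ctrl, and Thbs1 with Vcan at 0.984 times in cluster 5 of micrometastasis Tim3-KD. All 4 were found together in 0 of 155 cells of cluster 5 in macrometastasis Ctrl, which allows up to 1.94%, where the product is 0.505%.

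Cluster 17 carried all 4 members but had another make-up than monocyte-like cells. It was led by Pf4, Ctsl, Cxcl1 and Alb and was left unnamed. It held 97 cells of micrometastasis Tim3-KD and 186 and 197 of macrometastasis (Ctrl and Tim3-KD), with 7 or fewer in any other library. Thbs1 was at 386.4, 496.5 and 623.6 CPM, Fn1 at 912.9, 678 and 1037, Vcan at 213.3, 170.7 and 186.7 and F13a1 at 284, 140.7 and 172.7 in these 3 libraries. In summed CPM, F13a1 was lower there than in monocyte-like cells of the same library, and Thbs1, Fn1 and Vcan were higher. In micrometastasis Tim3-KD, though, monocyte-like cluster 5 lay above it for these 3, at 624, 1195 and 393.5 CPM. In macrometastasis Tim3-KD cluster 5 lay above it for Thbs1 (638.2 CPM) and Vcan (254.8), and below it for Fn1 (731.5). The median cell of cluster 17 was lower for Fn1, at 3.73, 0.424 and 1.80 UMIs per 10000 (micrometastasis Tim3-KD, macrometastasis Ctrl, macrometastasis Tim3-KD) beside 6.70, 1.87 and 4.55 in monocyte-like cells. For Vcan it was at 0 in all 3, as was that of monocyte-like cells in macrometastasis Ctrl. For Thbs1 it was at 0, 1.82 and 3.06, beside 1.43, 0 and 1.84 in monocyte-like cells, so the order differed between micrometastasis and macrometastasis. The summed Kupffer markers (12 of 12 genes) were at 7285 to 9492 CPM there and at 5.74 to 111.6 in monocyte-like cells. Hepatocyte markers (4 to 6 of 10 in the matrices) were at 1208 to 1432 against 113.1 to 372.5 CPM, and Alb among them at 118 to 446 against 3.06 to 32.0. The 3 of 9 platelet markers in the matrices did not move together: Pf4 was at 369.7 to 568 CPM there and 0.546 to 4.199 in monocyte-like cells, Clec1b at 3.66 to 59.96 and 0.499 to 2.67, and Itgb3 at 0.3998 to 2.06 and 0.875 to 3.56. Kupffer-like cells had Clec1b at 382.9 to 537 CPM. Of the epithelial or tumour markers none of 6 was in any matrix, and of the stellate or fibroblast markers at most 1 of 7, so the levels of their markers are not known here. The part of these cell types in the members' levels in cluster 17 was not tested.

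In macrometastasis the members' Tim3-KD to Ctrl ratios in cluster 17 were 1.53 for Fn1 (1.44 to 1.63), 1.26 for Thbs1 (1.16 to 1.36), 1.23 for F13a1 (1.06 to 1.42) and 1.09 for Vcan (0.956 to 1.25, which includes 1). The Fn1 ratio rests in part on 1 Tim3-KD cell with 369 Fn1 UMIs: without the cell of most UMIs in each library it was 1.38, and without doublet scores over 0.15 (19.4% and 20.8% of the cells) it was 1.04. Had the cluster been counted as monocyte-like, a choice added after the data had been seen, the class-wide macrometastasis ratios would be 1.18 for Fn1, 1.27 for Vcan and 1.77 for F13a1.

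Outside the monocyte-like class, F13a1 was also detected in neutrophil precursor-like cells and in cluster 15. In neutrophil precursor-like cells it was at 3.31 CPM in adjacent Ctrl, at 18.8 (Ctrl) and 26.6 (Tim3-KD) in micrometastasis, and for macrometastasis at 22.3 and 29.9. The Tim3-KD to Ctrl ratios were 1.41 (1.22 to 1.64) and 1.34 (1.05 to 1.74). In cluster 15, led by Ctla2a, Cd34 and Sox4, it was at 29.2, 26.2, 61.1, 77.0 and 24.7 CPM in the same order, the micrometastasis ratio being 2.33 (1.79 to 3.07) and the macrometastasis ratio 0.321 (0.249 to 0.414). Few cells carried these ratios: 19 of 100 (Ctrl) and 37 of 157 (Tim3-KD) had an F13a1 UMI in micrometastasis, and 12 of 52 and 22 of 147 in macrometastasis. Precursor-like cells held 3.23% and 7.74% of all F13a1 UMIs in micrometastasis (Ctrl and Tim3-KD) and 5.12% and 6.38% in macrometastasis. In mature neutrophil-like cells of macrometastasis F13a1 was at 7.94 and 3.85 CPM (0.484, 0.343 to 0.678) and Thbs1 at 7.14 and 4.05 (0.567, 0.402 to 0.796). In those of micrometastasis F13a1 was at 15.7 and 17.1 CPM (1.09, 0.885 to 1.34) and Thbs1 at 4.49 and 3.56 (0.792, 0.517 to 1.21). Both micrometastasis intervals include 1.

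Over the 58 pairs of class and library with at least 50 cells, the pattern of each matrix member was most like that of the others among 1642 genes in all 3 matrices. Pearson's r of log2(CPM + 10) was 0.985 for Thbs1 with Vcan, 0.980 for Fn1 with Vcan and 0.970 for Thbs1 with Fn1. F13a1 was less like them, at 0.888 with Vcan, 0.883 with Thbs1 and 0.879 with Fn1, and these were still its 3 closest genes. Next for Fn1 was Mcub, at 0.888. The pairs share libraries and depth, so r is a description only.

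The other genes of matrix and clotting were taken from 4 lists. Of the matrix proteins and proteoglycans in monocyte-like cells of micrometastasis, 0 of 7 genes with at least 20 UMIs were past 2-fold higher in Tim3-KD and 1 was lower: Col4a1, a basement membrane collagen, at 1.64 and 0.642 CPM (0.391, 0.151 to 0.953). In macrometastasis 0 of 6 were higher and 2 lower: Sparc, a collagen-binding matricellular protein, at 12.5 and 4.47 CPM (0.359, 0.211 to 0.617) and Spp1, osteopontin, at 118.2 and 53.2 (0.450, 0.384 to 0.528). The members are counted in these numbers. Over all genes tested, 5.68% were past 2-fold higher and 14.4% lower in micrometastasis, against 7.99% and 24.3% for macrometastasis. Of the matrix enzymes and inhibitors 1 of 7 was higher in micrometastasis, Mmp25 (0.657 and 2.42 CPM), and 3 were lower, with Tgm2, tissue transglutaminase, lowest at 70.9 and 13.97 CPM (0.197, 0.167 to 0.232), then Mmp14 (0.326) and Timp2 (0.430). In macrometastasis 0 of 6 were higher and 3 lower: Mmp9 at 20.9 and 2.44 CPM (0.117, 0.0638 to 0.205), Tgm2 at 66.7 and 15.3 (0.230, 0.178 to 0.295) and Hpse, heparanase, at 71.1 and 26.3 (0.370, 0.298 to 0.458). In adjacent tissue, resting on 21 Tim3-KD cells, Tgm2 and Hpse were instead past 2-fold higher, with ratios of 2.13 (1.06 to 3.90) and 2.92 (1.93 to 4.31), and Mmp9 had 0 UMIs against 20 in Ctrl. Tgm2, Spp1 and the receptor Sdc4 are among the 10 leading genes of macrophage-like cluster 13, as is Trem2, which in monocyte-like cells was at 89.7 and 64.4 CPM in micrometastasis (Ctrl, Tim3-KD) but 32.9 and 41.9 at the later site. The part of macrophage genes in these ratios was not tested.

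Of the clotting and fibrinolysis genes, Fgb, the fibrinogen β chain made by hepatocytes, was the 1 gene past 2-fold, at 3.52 times (1.34 to 11.7) in micrometastasis from 5 and 27 UMIs and 0.356 times (0.153 to 0.842) in macrometastasis, among 5 and 9 genes. Of the hepatocyte markers, Alb and Apoa1 moved the same way in these cells. Alb went from 3.06 to 5.28 CPM and then from 32.0 to 8.81, Apoa1 from 0.438 to 2.00 and then from 6.67 to 1.36. In cluster 5, though, the summed hepatocyte markers given above were higher in Tim3-KD at both sites. Alb and Apoa1 thus need not stand for the list. The part of the hepatocyte markers in the Fgb ratios was not tested. Of the receptors, 4 of 9 were past 2-fold lower in micrometastasis and 4 of 8 in macrometastasis, with 0 higher, beside 14.4% and 24.3% of all genes tested that were lower. Cd36, a receptor of thrombospondin-1, was at 3.39 and 0.642 CPM in micrometastasis (0.189, 0.0792 to 0.407) and at 59.1 and 1.08 in macrometastasis (0.0183, 0.00775 to 0.0372), where it is also a leading gene of cluster 24. Sdc3 and Sdc4, heparan sulfate proteoglycans that bind fibronectin, were at 0.355 and 0.404 times in micrometastasis, and at 0.329 and 0.277 times at the later site. The receptor medians, -0.95 and -0.93 on the log2 scale, lay below those of all genes tested, -0.22 and -0.39. The medians of the matrix proteins were -0.34 and -0.30, of the enzymes -0.47 and -0.78 and of the clotting genes -0.26 and -0.17. Over the 21 adjacent Tim3-KD cells the receptors went the other way: 3 of 9 were past 2-fold higher (Cd36, Itgb1 and Sdc3) and 0 lower, beside 16.7% and 18.8% of all genes tested. Of the 6 clotting genes tested there, 1 was past 2-fold higher (Thbd) and 1 lower (F10).

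**Figure D5:**
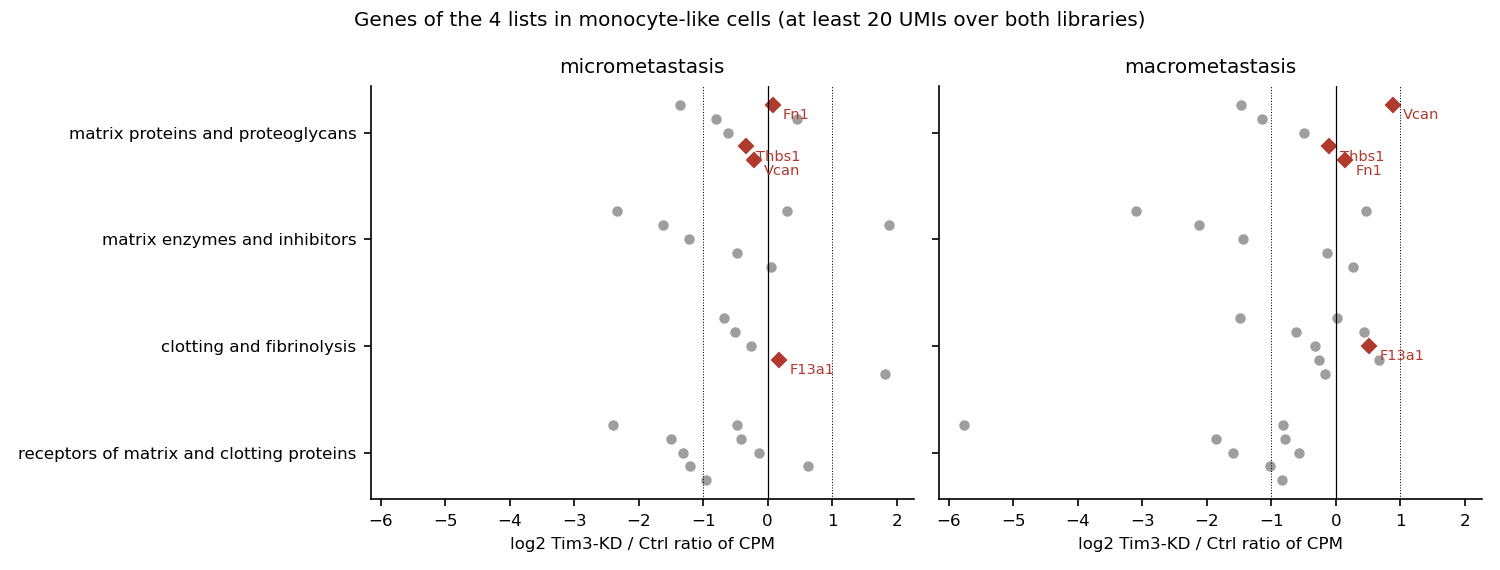
Log2 ratio, Tim3-KD over Ctrl, of each list gene with at least 20 UMIs in monocyte-like cells of micrometastasis and macrometastasis, with dotted lines at 2-fold. The 4 members (red diamonds) lie between the lines, while receptors and enzymes reach down to -5.77 (Cd36 in macrometastasis).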

How the data were processed

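The submitters' processing notes name Trim Galore 0.4.3, STAR 2.7.7a and the mouse build GRCm38. The values the authors deposited, in 3 matrices of 2643 to 4486 genes (1 per site, both libraries of a site together), are scaled scores: each gene centred, divided by its SD, capped at 10, with the total UMIs of a cell regressed out. The matrices had been expected to hold counts. The scores were turned back into UMIs per cell, of which 99.999% to 100% lay within 0.05 of a whole number. Capped values, 0.144% to 0.160% of the detected ones and 4 of the Vcan values, are lower bounds. On simulated scores of 4481 genes in 2345 cells the inversion returned 100% of UMIs exactly. These scores were made with the same model, around the UMIs recovered from adjacent tissue. The simulation thus checks the computation and not the model, and it was not run for the other matrices.

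All cells were clustered together without the 4 members (scanpy 1.11.5, 30 principal components, 15 neighbours, leidenalg 0.10.2 at resolution 1), and clusters were named from marker lists, taking the class with the most markers among the 10 leading genes and at least 3 detected markers. No cell was left out in the values given first, since the authors had removed doublets called with scrublet before deposit, and doublet scores computed here served only as an alternative. UMIs were summed per class and library and divided by all UMIs of those cells, with exact Poisson, binomial and conditional binomial intervals (scipy 1.17.1). Depth was 7086531 to 79971697 UMIs per library. In list and all-gene calls, medians and trimmed means a count of 0 was set to 3 UMIs, and no gene at 0 in a library was called higher there. The trimmed mean left out 10% of genes on each side. Named list genes were the up to 3 highest and 3 lowest ratios past 2-fold per list and site. Alternatives were a mean over cells, the trimmed mean, another clustering, clustering with the members, thinning to 1000 UMIs, and leaving out doublet scores over 0.15, capped cells or cells under 3000 UMIs. The members and lists were chosen with earlier results of these data known.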

Additional observations from a re-analysis of the deposited data

Results flagged for a closer look

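Whole libraries of adjacent tissue and of macrometastasis moved in opposite directions between Ctrl and Tim3-KD. The Tim3-KD to Ctrl ratio was 0.433 and 1.31 for Thbs1, 0.483 and 1.68 for Fn1, 0.0597 and 1.82 for Vcan and 0.209 and 2.23 for F13a1. Within micrometastasis, monocyte-like cluster 8, led in part by proliferation genes, and cluster 5 did so for Thbs1, at 0.732 and 1.75, and for Vcan, at 0.691 and 1.74. In adjacent monocyte-like cells, resting on 21 from Tim3-KD, Thbs1 (1.68) and Fn1 (1.80) were instead higher, and Vcan (0.128) and F13a1 (0.787) lower. With 1 library per group, none of these differences was tested.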

How the results depend on the processing

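Replicate numbers paired nothing, each group having 1 library numbered 1, and no model over the 3 sites together was run. Values are log2 ratios of Tim3-KD over Ctrl or of the sites named, and the cause of a change was not tested. Depth limits members under 3 UMIs, and 1 library per group limits every comparison. Clustering with the members and leaving out capped cells or cells under 3000 UMIs moved no ratio or level run under them by more than its interval. Shares of cells were not run under these. No thinning, or thinning to 1000 UMIs, moved 37 of 40 shares of cells, as these set the depth.

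With a mean over cells, whole-library micrometastasis reversed for Thbs1 (0.26), Fn1 (0.071) and Vcan (0.27), as did monocyte-like micrometastasis for Thbs1 (0.19) and Vcan (0.28), monocyte-like macrometastasis over micrometastasis for Thbs1 (-0.16) and whole-library micrometastasis over adjacent tissue for F13a1 (0.33). Other values so moved were F13a1 0.34 in whole-library micrometastasis, Thbs1 -1.57, Fn1 -1.42 and F13a1 -2.52 in adjacent tissue and Thbs1 0.60, Vcan 1.00 and F13a1 0.87 in macrometastasis. In monocyte-like cells they were Fn1 0.41 and F13a1 0.30 in micrometastasis and Thbs1 0.65, Fn1 0.66, Vcan 1.55 and F13a1 0.64 in macrometastasis. Between sites they were Fn1 0.81 (micrometastasis over adjacent) and Fn1 -0.61, Vcan -1.57 and F13a1 -0.81 (macrometastasis over micrometastasis).

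Relative to the trimmed mean, whole-library micrometastasis reversed for Thbs1 (0.12), Fn1 (0.15) and Vcan (0.18), and monocyte-like micrometastasis for Vcan (0.015). F13a1 was at 0.64 in whole-library micrometastasis. Adjacent tissue gave Thbs1 -1.84, Fn1 -1.68 and F13a1 -2.89, and macrometastasis Thbs1 0.68, Fn1 1.04, Vcan 1.15 and F13a1 1.44. Monocyte-like cells gave Thbs1 -0.11, Fn1 0.31 and F13a1 0.41 in micrometastasis and Thbs1 0.29, Fn1 0.54, Vcan 1.28 and F13a1 0.91 in macrometastasis.

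Without doublet scores over 0.15, whole libraries gave Thbs1 -0.55, Fn1 -0.50, Vcan -0.43 and F13a1 0.07 in micrometastasis, Thbs1 0.50, Fn1 0.69 and Vcan 1.00 in macrometastasis and F13a1 -2.64 in adjacent tissue. Monocyte-like macrometastasis gave Thbs1 0.45, Fn1 0.52 and Vcan 1.41, and macrometastasis over micrometastasis Thbs1 0.056 and Fn1 -0.37. At Leiden resolution 2, monocyte-like micrometastasis reversed for Fn1 (-0.035), with Vcan at -0.31 and F13a1 at 0.065, Fn1 at 0.98 and F13a1 at 0.17 over adjacent tissue and Fn1 at -0.31 for macrometastasis over micrometastasis.

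Of the choices made after seeing the data, leaving out the cell of most UMIs in each library gave Thbs1 -1.56 and F13a1 -2.69 in whole adjacent tissue, Thbs1 0.082 in monocyte-like macrometastasis and Thbs1 0.16 and Fn1 -0.32 for macrometastasis over micrometastasis. Counting cluster 17 as monocyte-like gave Fn1 0.24, Vcan 0.35 and F13a1 0.83 in macrometastasis, Fn1 0.82 for micrometastasis over adjacent tissue and Thbs1 0.61, Vcan -0.60 and F13a1 -1.25 for macrometastasis over micrometastasis.

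In monocyte-like cells, at a 1.5-fold limit the list genes past it numbered 3 (matrix proteins) and 2 (clotting) in micrometastasis and 3 (clotting) and 7 (receptors) in macrometastasis. With at least 100 UMIs, those past 2-fold numbered 0 (matrix proteins), 1 (enzymes) and 0 (clotting) in micrometastasis and 1 (matrix proteins) and 0 (clotting) in macrometastasis.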
